A study of Homo sapiens with 4 samples.

Results

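Zinc handling genes were examined in the human liver cancer cell line Huh7, which was established from a hepatocellular carcinoma, on 1 array of cells sorted by flow cytometry for the surface protein CD133 (CD133+) and 1 array of cells of the same line sorted as lacking it (CD133-). No treatment, time point or genetic change is named in the labels, and nothing there speaks of repeated sorts. The members are the metallothioneins, their regulator MTF1, and the zinc carriers of the SLC30 and SLC39 families. The families were chosen with earlier results of these data known. Within them members were taken by name: every probe set whose single platform gene symbol belongs to these families was taken. This gave 74 of the 54675 probe sets and 35 of the 19775 named genes, namely 10 metallothioneins, MTF1, 10 SLC30 genes and 14 SLC39 genes. The deposited table summarizes each array by 2 algorithms. RMA, on a log2 scale, is the main measure here, and MAS5, a linear signal from the same arrays, is a check that is not independent. Differences are CD133+ minus CD133- on the log2 scale. Since neither population was measured on a further array, the differences carry no replicate error, were not tested, and describe these arrays.

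Metallothioneins are small cysteine-rich proteins that bind zinc, copper and cadmium in the cytosol, and liver is among the tissues that make most of them. Their genes are switched on by zinc through MTF1, a zinc finger factor that binds metal response elements in their promoters, and also by glucocorticoids and oxidants. SLC30 carriers (ZnT) move zinc out of the cytosol, either out of the cell or into vesicles and organelles. SLC39 carriers (ZIP) move it the other way, into the cytosol, and some of them also carry iron, manganese or cadmium.

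The promoters of 5 members are printed because the metallothioneins among them were mostly lower together, while SLC30A1, the textbook MTF1 target outside the metallothioneins, was not. Each run is the 250 bases before the gene start in RefSeq (GRCh38.p14), on the gene strand. Capitals mark the core of the metal response element, searched as TGCACNC or TGCGCNC on both strands. The regions are chr16:56608334-56608583 (plus strand) for MT2A, chr16:56682220-56682469 (plus) for MT1X, chr16:56669564-56669813 (plus) for MT1H, chr16:56564823-56565072 (plus) for MT4 and chr1:211579162-211579411 (minus) for SLC30A1.
MT2A: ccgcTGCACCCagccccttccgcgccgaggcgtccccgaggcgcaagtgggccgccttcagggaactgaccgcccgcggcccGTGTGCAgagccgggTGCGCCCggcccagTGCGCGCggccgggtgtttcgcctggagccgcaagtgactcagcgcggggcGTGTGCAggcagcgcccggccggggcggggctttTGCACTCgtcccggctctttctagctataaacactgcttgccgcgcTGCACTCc
MT1X: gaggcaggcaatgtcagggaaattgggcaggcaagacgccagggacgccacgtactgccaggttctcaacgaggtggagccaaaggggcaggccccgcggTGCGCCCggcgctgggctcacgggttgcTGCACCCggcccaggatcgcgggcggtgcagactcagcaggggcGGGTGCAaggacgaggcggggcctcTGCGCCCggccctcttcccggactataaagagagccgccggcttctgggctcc
MT1H: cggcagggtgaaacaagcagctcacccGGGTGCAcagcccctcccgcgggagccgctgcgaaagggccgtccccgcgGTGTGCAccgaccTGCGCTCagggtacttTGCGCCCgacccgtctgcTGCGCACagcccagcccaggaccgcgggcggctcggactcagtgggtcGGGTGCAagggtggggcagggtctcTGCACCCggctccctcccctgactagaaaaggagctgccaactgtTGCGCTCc
MT4: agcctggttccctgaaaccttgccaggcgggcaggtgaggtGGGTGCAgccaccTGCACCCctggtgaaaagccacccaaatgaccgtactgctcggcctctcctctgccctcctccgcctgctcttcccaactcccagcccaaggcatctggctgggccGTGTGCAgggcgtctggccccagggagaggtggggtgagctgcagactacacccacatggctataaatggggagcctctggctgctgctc
SLC30A1: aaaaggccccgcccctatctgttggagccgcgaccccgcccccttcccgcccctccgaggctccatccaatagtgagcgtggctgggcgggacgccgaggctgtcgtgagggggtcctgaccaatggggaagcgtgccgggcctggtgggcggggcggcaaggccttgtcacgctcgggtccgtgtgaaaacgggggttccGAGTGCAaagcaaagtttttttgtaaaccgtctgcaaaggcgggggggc

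The core matched 7 times before MT2A, 4 times before MT1X, 8 times before MT1H, 3 times before MT4 and 1 time before SLC30A1. Of the 35116 promoters in the table, 24.8% held at least 1 match in the same window, 1.58% held at least 3 and 0.0513% held at least 6. The table held promoters for 26 of the 35 member genes. SLC30A8, SLC39A14, SLC39A4, MT1E, MT1F, MT1G, MT1HL1, MT1M and MT3 were not among them. Among 30 promoters of 21 transporter genes, some of which have several starts, 11 held a match and 1, that of SLC30A2, held 3. The promoter of MTF1 held none. The MT1X and MT1H promoters shared matches at the same distances from the gene start. These began 78 bases before it on the other strand and 53 bases before it on the gene strand. Both promoters had further matches. That of MT1H 8 bases before the start was at the same distance as a match of MT2A.

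**Figure D1:**
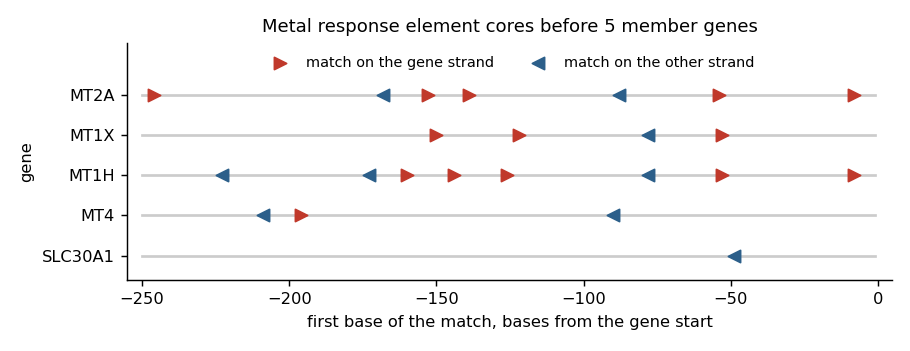
Positions of metal response element cores (TGCACNC or TGCGCNC) in the 250 bases before 5 member genes; the x axis is the first base of each match counted from the gene start, and triangles give its strand. MT2A holds 7 matches and MT1H 8, spread over the window, while SLC30A1 holds 1.

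Other motifs known from metallothionein promoters were searched in the same windows. The antioxidant response element core, TGACNNNGC on both strands, matched 1 time each before MT2A, MT1X and SLC30A1. It was present in 2 of the 4 metallothionein promoters, 5 of 11 SLC30 promoters, 4 of 19 SLC39 promoters and 10.9% of all promoters. In MT2A this match did not overlap a capital stretch. The full palindromic glucocorticoid response element, searched by its consensus, matched in none of the members and in 1 promoter of the whole table. The shorter TGTTCT, a single arm of it, matched in none of the 4 metallothionein promoters, 3 of the 30 transporter promoters and 12.4% of all. A TATAAA box on the gene strand was present before MT2A, MT1X and MT4 and in 6.80% of all promoters. Among transporters it was present in 2 of 11 SLC30 promoters, both of SLC30A10, and in no SLC39 promoter. A match describes the letters of the window and says nothing of a factor bound there. A missing match does not show that a gene lacks the element, since bases further upstream and other letters were not searched.

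The labels of the sort held on the arrays. PROM1, which encodes CD133, had an RMA value of 10.49 in CD133+ cells against 5.33 in CD133- cells. Products of hepatocytes (ALB, APOA1, TTR, SERPINA1 and AFP) had RMA values of 12.23 to 14.01, with differences from -0.10 to 0.55, the highest being that of TTR. Of 4 blood cell markers with a probe set, PTPRC lay below the brightness floor, and CD14, HBB and CD3E reached at most 5.91. Among endothelial and stromal markers, COL3A1 and ACTA2 lay below the floor, PECAM1 and VWF reached at most 5.87, and COL1A1 had 7.68 and 7.64. The floor is an RMA value of 4.86, the median over probe sets of the brighter array, and a gene whose brighter value exceeds it is called detected here. Across all probe sets the arrays correlated at Pearson's r = 0.994. The CD133+ minus CD133- difference was also compared between probe sets of the same gene, both above the floor. The gap between the paired differences had an SD of 0.24 over 16955 pairs, called the spread between probe sets below. For the difference of a single probe set this corresponds to an SD of 0.17. Neither SD holds sort-to-sort or culture-to-culture variation. In sorted bulk cells, fewer cells that express a gene and less RNA per cell cannot be told apart.

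Metallothioneins were lower in CD133+ cells. All 10 metallothionein genes were detected and all 10 were lower, with a median difference of -0.82, against -0.01 over the 12899 detected genes, of which 51.1% were lower. At least 2-fold, 2 of the 10 were lower, where 0.116% of detected genes were. At least 1.5-fold, 8 of the 10 were lower, where 1.01% of detected genes were. These 8 are the MT1 genes and MT2A. They held places 8 to 81 when the 12899 detected genes were ordered from the most negative difference. Most of their probe sets can take up each other's transcripts, so the 10 genes are not 10 separate measurements.

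MT2A encodes the most abundant form in many human tissues. Its RMA values were 10.91 for CD133+ and 11.77 for CD133- cells (the order kept from here on), a 1.83-fold lower level, and its MAS5 signals were 8189 and 14906, 1.82-fold lower. The algorithms thus gave nearly the same fold for this gene.

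MT1M was the member with the most negative RMA difference. It had RMA values of 7.61 and 8.77, a 2.24-fold lower level in CD133+ cells, and MAS5 signals of 920.0 and 1895, 2.06-fold lower. It is also the only MT1 gene whose probe set above the floor carries a name ending in plain _at, the ending given to probe sets designed to match a single transcript. Its difference of -1.16 was larger in size than the SD of 0.17 for the difference of a single probe set, which holds no biological replication.

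MT1G had RMA values of 9.99 and 11.00, 2.01-fold lower, but only 1.54-fold lower by MAS5, with signals of 3629 and 5572. Its second probe set, which ends in plain _at, lay below the floor with an RMA value of 4.05 on both arrays. MT1G therefore crossed the 2-fold line by RMA and not by MAS5, and its more specific probe set gave no readable level.

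MT1E had RMA values of 11.15 and 11.97, 1.77-fold lower, and its second probe set had 9.80 and 10.60. MT1F had 10.19 and 10.86, 1.59-fold lower, and its second probe set had 10.06 and 10.85. MT1X had 9.998 and 10.88, 1.84-fold lower, and its second probe set had 9.95 and 10.91. For these 3 genes both probe sets were lower in CD133+ cells by similar amounts, with differences from -0.95 for MT1X to -0.67 for MT1F. The second MT1X probe set is listed by the platform with a transcript that RefSeq names MT1L, a transcribed pseudogene of the cluster, so the gene behind its signal is uncertain.

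MT1H had RMA values of 10.21 and 11.03, 1.76-fold lower, and MAS5 signals of 4181 and 7422. MT1HL1, an MT1H-like gene that lies apart from the cluster on chromosome 1, had RMA values of 10.23 and 11.02, 1.73-fold lower. Here the algorithms parted: the MAS5 signals of MT1HL1 were 3559 and 13523, 3.80-fold lower. The algorithm thus changed the size of the MT1HL1 difference more than that of any other MT1 gene.

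The brain form MT3 and the squamous epithelial form MT4 lay close to the floor. MT3 had RMA values of 5.49 and 5.75, and MT4 had 5.20 and 5.42. Their differences of -0.26 and -0.22 were not far beyond the SD of 0.17 for the difference of a single probe set. MAS5 gave signals of 44.4 and 132 for MT3 and of 10.8 and 30.3 for MT4, larger ratios at signals near or below the MAS5 floor of 91.8. Whether either gene is expressed in these cells was not settled by the values.

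**Figure D2:**
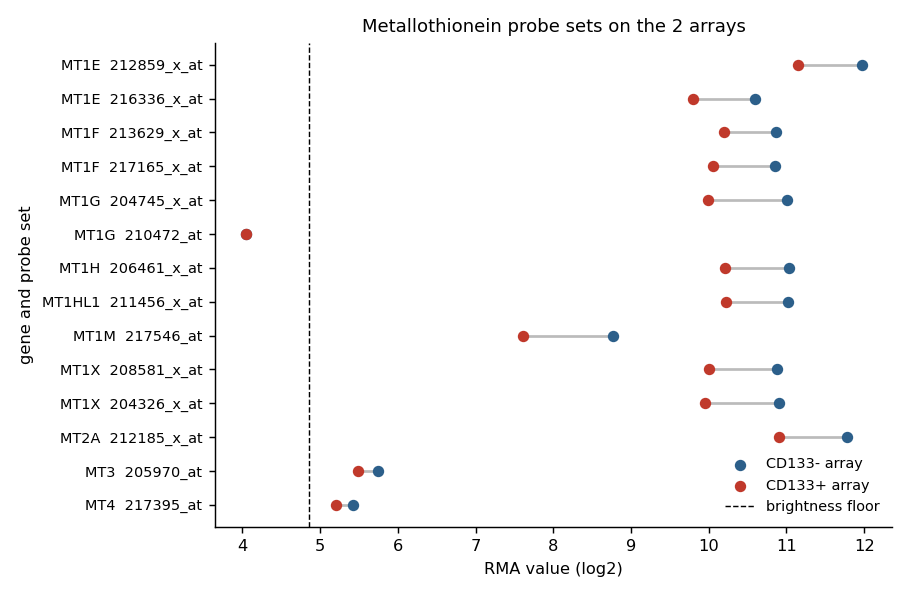
RMA values (log2, x axis) of the 14 metallothionein probe sets on the CD133+ array (red) and the CD133- array (blue), 1 array each; the dashed line is the brightness floor of 4.86. The red point lies left of the blue point on all 13 probe sets above the floor, and MT1G's second probe set lies below it with a value of 4.05 on both arrays.

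The design of the probe sets limits how many separate genes this pattern can stand for. Of 14 metallothionein probe sets, 10 end in _x_at, the ending given to sets with probes that can match other transcripts, and 7 of the 10 genes were represented by such a set. All 10 of the _x_at sets were lower, with differences from -1.01 to -0.67. Of the 2787 probe sets ending in _x_at above the floor, 32 (1.15%) were at least 1.5-fold lower, and 10 of those 32 are metallothionein sets. Without _x_at probe sets, 3 metallothionein genes remained (MT1M, MT3 and MT4), with a median of -0.26 and 1 gene, MT1M, at least 2-fold lower. Among the 1381 genes whose brighter RMA value was at least 10, 21 (1.52%) were at least 1.5-fold lower, and 7 of the 21 are metallothioneins.

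By MAS5 all 10 metallothionein genes were lower as well, with a median of -0.91, where 6414 of the 12899 detected genes were lower. In the signals as measured, the 9 above the MAS5 floor were at least 1.5-fold lower, where 5.44% of genes above that floor were, and 3 of them (MT1HL1, MT1M and MT3) were at least 2-fold lower, where 1.71% were. The CD133+ signal of MT3 lay below the MAS5 floor, so that only a bound of at least 1.44-fold lower can be given for it. Of the 8 above that floor on both arrays, 8 were at least 1.5-fold and 2 at least 2-fold lower.

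Genes beside the metallothionein cluster on chromosome 16 were measured for comparison. RefSeq places 11 protein-coding metallothionein genes there in a row, from MT4 to MT1X, and the platform annotation used here gave 2 of them, MT1A and MT1B, no probe set of their own. Of the 4 nearest protein-coding genes with a probe set on each side, 6 were detected, with differences from -0.41 (NUDT21, an mRNA 3' end processing factor) to 0.20 (BBS2, a ciliary protein). NUP93, a nuclear pore protein that follows the cluster, had RMA values of 8.85 and 8.92, and OGFOD1, an oxygenase that precedes it, had 8.67 and 8.81. GNAO1, also among the 6, lay barely above the floor with RMA values of 4.86 and 4.87. Its MAS5 signals of 8.52 and 4.83 lay below the MAS5 floor, so its difference tells little. None of the 6 reached 1.5-fold, a count near the share over all detected genes. Of those, 3.67% were at least 1.5-fold higher and 1.01% at least 1.5-fold lower.

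MTF1, the zinc-sensing activator of metallothionein genes, was close to equal on the arrays. Its brightest probe set had RMA values of 6.90 and 6.94. All 3 of its probe sets were above the floor, with differences from -0.16 to -0.04. Its MAS5 signals were 306 and 385 on the brightest probe set, 1.26-fold lower in CD133+ cells. On its other probe sets they were 470 and 436, and 325 and 298, slightly higher in CD133+ cells.

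The zinc carriers of both families were mostly close to equal. Of 24 transporter genes 21 were detected, with 12 higher and 9 lower, and 15 of the 21 (71.4%) differed by less than 0.25, against 78.2% of all detected genes. In the values as measured, 2 of the 21, SLC39A4 and SLC30A4, were at least 1.5-fold higher, where 3.67% of detected genes were by the same count. The CD133- value of SLC30A4 lay below the floor, and of the 19 transporters above the floor on both arrays 1, SLC39A4, was at least 1.5-fold changed. None of the 21 was at least 1.5-fold lower, where 1.01% of detected genes were. MAS5 gave the same direction for 18 of the 21, and for 9737 of the 12899 detected genes.

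Among SLC30 carriers, SLC30A1 is the plasma membrane exporter that MTF1 activates along with metallothioneins. It had RMA values of 8.89 and 8.84, and MAS5 signals of 2107 and 2051. A second probe set had 7.45 and 7.29, and the remaining probe set lay below the floor. Neither readable probe set was lower in CD133+ cells, unlike the MT1 genes and MT2A. With 1 array each, this contrast has no test.

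SLC30A10, which exports manganese from hepatocytes, had RMA values of 8.78 and 8.92, with the opposite direction by MAS5 (2435 and 2208). SLC30A5 and SLC30A6 form a carrier of the early secretory pathway that loads zinc into enzymes. SLC30A5 had 7.35 and 7.43, and SLC30A6 had 7.30 and 7.59, the lowest difference of the family at -0.28. SLC30A7, a carrier of the Golgi, had 8.02 and 8.08, and SLC30A9, which acts in mitochondria, had 8.59 and 8.63. Judged by the brightest probe set, only SLC30A6 of these 5 genes exceeded the SD of 0.17 for the difference of a single probe set. Its dimmer readable sets gave -0.11 and, barely above the floor, 0.02. By MAS5 both dimmer sets were higher in CD133+ cells, with signals of 307 and 227, and of 136 and 62.1. The size and direction for SLC30A6 thus depended on the probe set. For SLC30A7 the dimmest readable set gave 0.19, larger than that SD, and the middle one gave -0.04.

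SLC30A4, a carrier of endosomes and lysosomes, had the highest difference of the family but a dim signal. Its RMA values were 4.98 and 4.13, so that the CD133- value lay below the floor and only a bound of at least 1.09-fold higher can be given. Its other 2 probe sets lay below the floor with differences of -0.09 and -0.04. SLC30A2, a carrier of secretory vesicles, was as dim, with 4.97 and 4.69, and a bound of at least 1.08-fold. SLC30A3, the carrier of synaptic vesicles, had 6.42 and 6.40, with MAS5 signals of 25.3 and 18.8, below the MAS5 floor. SLC30A8, the carrier of insulin granules, was below the floor on both arrays. The median of the 9 detected SLC30 genes was -0.04.

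Among SLC39 carriers, SLC39A4 stood out by size. It encodes ZIP4, the importer of dietary zinc at the surface of intestinal cells, whose loss causes acrodermatitis enteropathica. Its RMA values were 6.80 in CD133+ and 5.44 in CD133- cells, a 2.56-fold difference, and its MAS5 signals were 405 and 116, a 3.49-fold difference. Both RMA values lay above the floor. It was the only one of the 24 transporter genes at least 2-fold changed, where 1.65% of detected genes were at least 2-fold higher, and it held place 117 from the most positive difference. The gene has a single probe set, ending in _s_at, a kind that can match several transcripts, so no second probe set could be set beside it.

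SLC39A8 (ZIP8), a carrier of zinc, manganese and cadmium, came next with RMA values of 7.73 and 7.18, 1.47-fold higher, and MAS5 signals of 922 and 624, 1.48-fold higher. Of its 4 probe sets above the floor, 3 were higher in CD133+ cells, by 0.56, 0.36 and 0.08, and the dimmest differed by -0.09. The size of the difference thus depended on the probe set. SLC39A14 (ZIP14), its closest relative and a hepatocyte carrier of zinc, iron and manganese that inflammation induces, had RMA values of 10.94 and 11.03 and MAS5 signals of 11566 and 12495, and its second detected probe set had RMA values of 5.59 and 5.41. The SLC39A14 difference of -0.09 on its brightest probe set was smaller in size than the SD of 0.17 for the difference of a single probe set. Its second detected probe set differed by 0.19. Whether the related carriers share a direction was not settled by the values.

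SLC39A5, a carrier of the basolateral membrane in liver, pancreas and gut, was slightly higher on both readable probe sets, by 0.21 and 0.13, with 9.21 in CD133+ cells and MAS5 signals of 2619 and 2077 on the brighter. SLC39A10 had 7.65 and 7.48 and SLC39A6 had 9.44 and 9.65. These plasma membrane carriers are close relatives, and their differences of 0.17 and -0.22 had opposite signs. All 4 SLC39A6 probe sets were lower, with differences from -0.30 to -0.08. SLC39A3, a plasma membrane importer, had the lowest difference of the family at -0.35, with 7.62 and 7.97, while its other detected probe set differed by 0.05.

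The remaining detected SLC39 genes differed little. SLC39A1, a widely expressed plasma membrane importer, had 7.45 and 7.32. SLC39A7, which releases zinc from the endoplasmic reticulum, had 8.30 and 8.23, and SLC39A9, a carrier of the Golgi and cell surface, had 9.19 and 9.23. SLC39A11 had 7.57 and 7.53, and SLC39A13, needed for connective tissue, had 7.37 and 7.30. SLC39A2 and the brain carrier SLC39A12 were below the floor on both arrays. The 12 detected SLC39 genes had a median of 0.07, with 8 higher and 4 lower.

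**Figure D3:**
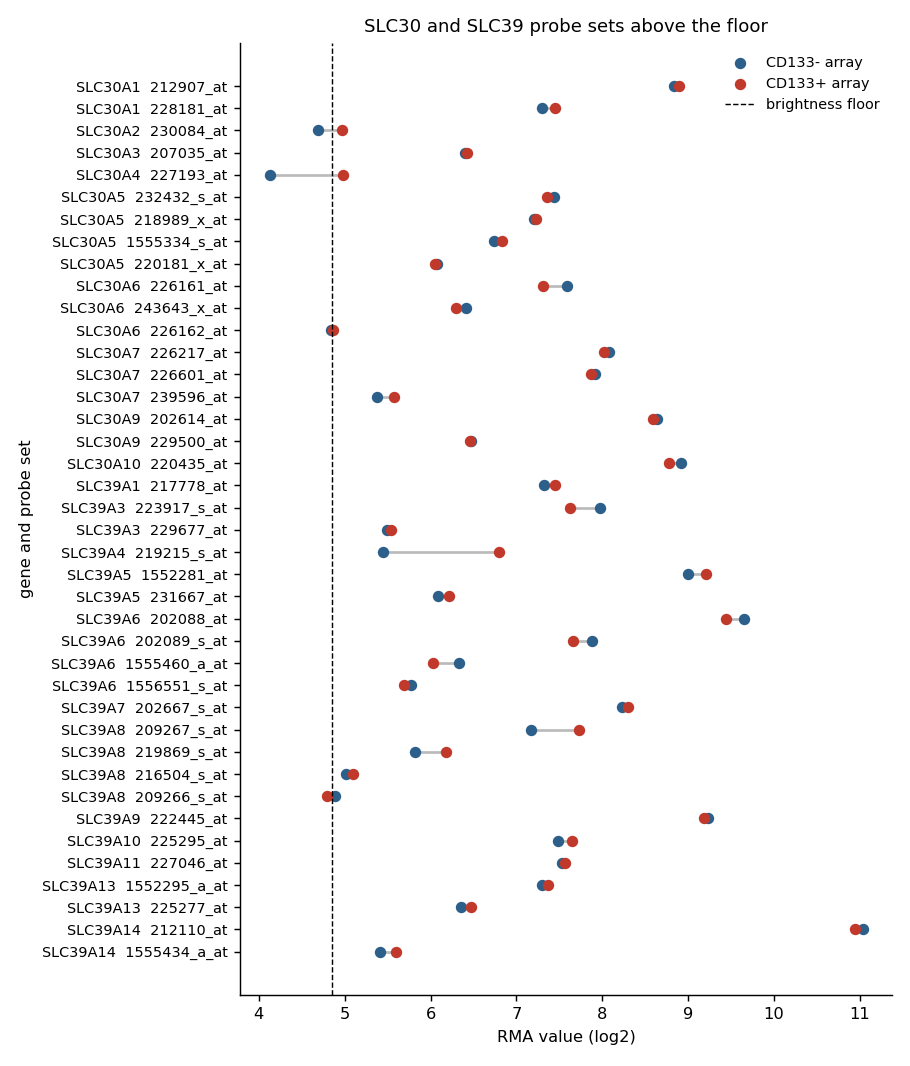
RMA values (log2, x axis) of the SLC30 and SLC39 probe sets above the floor of 4.86 (dashed) on the CD133+ (red) and CD133- (blue) arrays, 1 array each. Most pairs of points lie close together; SLC39A4, with 6.80 and 5.44, and SLC30A4, with 4.98 and 4.13, are the widest apart.

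**Figure D4:**
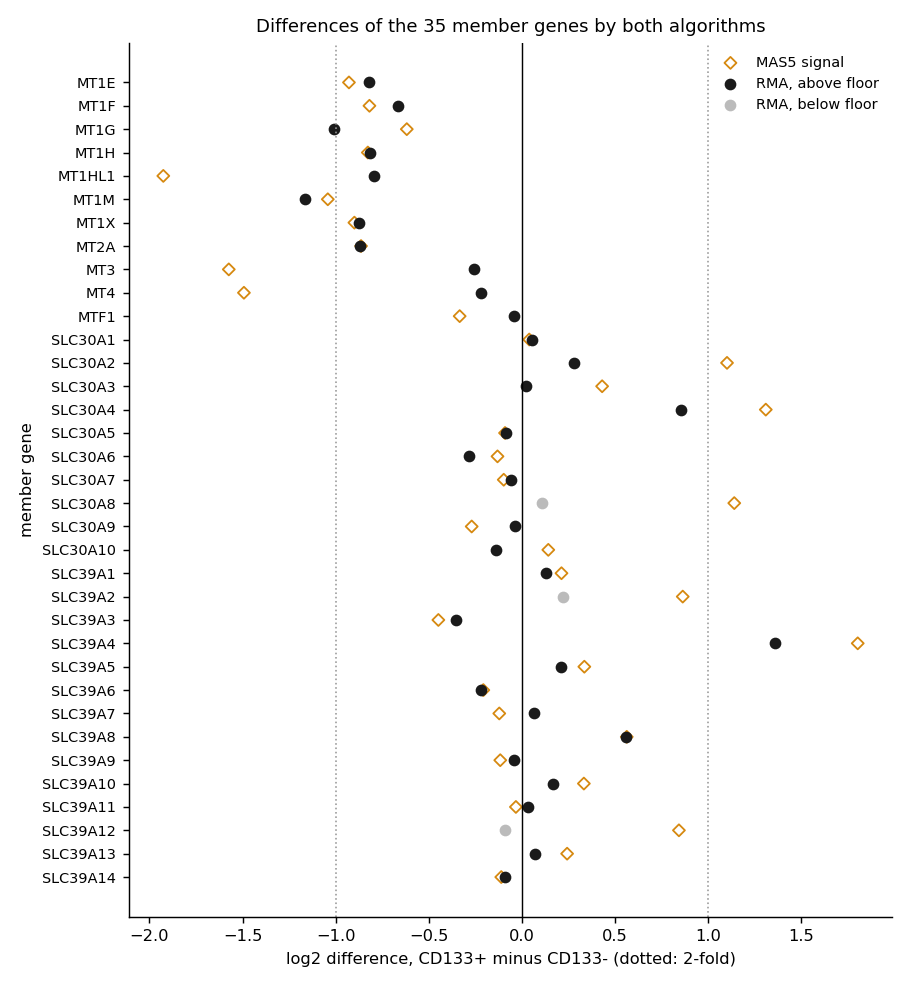
Log2 differences (CD133+ minus CD133-, x axis) of the 35 member genes by RMA (filled points, grey where below the floor) and MAS5 (open diamonds); dotted lines mark 2-fold. The 10 metallothioneins lie left of 0 by both algorithms, and SLC39A4 lies beyond 2-fold on the right by both.

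Set against all detected genes, the MT1 genes and MT2A lay in the sparse left tail, at or below -0.67, while both carrier families lay mostly around 0. The lowest carrier was SLC39A3 with a difference of -0.35, and the MT1 gene nearest to it was MT1F with -0.67.

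**Figure D5:**
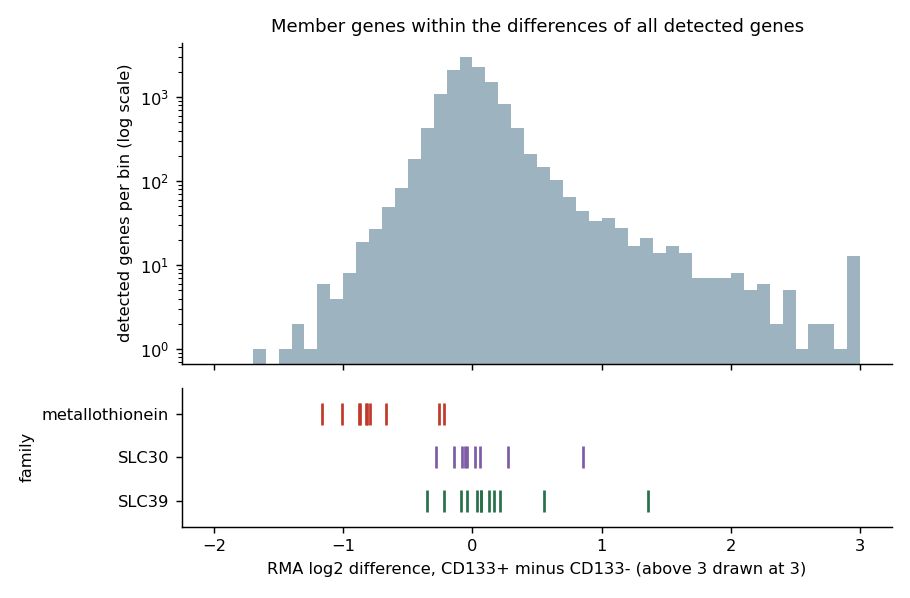
Histogram of RMA log2 differences of the 12899 detected genes (upper panel, y axis on a log scale, bins 0.1 wide) and the detected members of each family (lower panel, 1 tick per gene). The 8 MT1 and MT2A ticks lie at or below -0.67, where the histogram is sparse, and the SLC30 and SLC39 ticks lie mostly around 0.

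Genes of neighbouring pathways were counted from lists drawn up for this comparison. Of 16 copper handling genes 12 were detected, with 3 higher, 8 lower and a median of -0.10. None of the 12 reached 1.5-fold, where 3.67% of detected genes were that much higher and 1.01% that much lower. The extremes were COMMD1, a regulator of copper export, at -0.39 and CP, the plasma copper protein ceruloplasmin, at 0.42. The copper exporter ATP7B, with 7.94 on both arrays, and the importer SLC31A1, with 9.19 and 9.29, were nearly equal. Of 14 genes of the oxidant and heavy metal response, all detected, 5 were higher and 9 lower, with a median of -0.06. None of the 14 reached 1.5-fold, beside the same 3.67% and 1.01% of detected genes. Among the 14, HMOX1, heme oxygenase, which metals induce, had 7.83 and 7.56. The glutathione synthesis gene GCLC was lowest at -0.22, and the export pump ABCC2 was highest at 0.51.

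Of 12 genes of the glucocorticoid receptor and its targets 10 were detected, with 6 higher, 3 lower and a median of 0.03. The kinase gene SGK1, with 9.60 and 8.79, was 1.76-fold higher, and the transcription factor gene CEBPD, with 9.93 and 9.34, was 1.502-fold higher. FKBP5, a widely used marker of receptor activity, had 7.64 and 7.92, and the receptor gene NR3C1 had 8.22 and 8.41. At least 1.5-fold, 2 of the 10 were higher and 0 lower, where 3.67% and 1.01% of detected genes were. Other zinc genes had 4 detected members of 7 (TRPM7, MCOLN1, GPR39 and CNBP), with differences from -0.06 to -0.04.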

How the data were processed

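Total RNA was labelled with biotin and hybridized, per the labels' protocols. The authors deposited MAS5 signal intensity and RMA log2 values for the same populations; the tool names MAS5, RMA and GCOS come from the submitters' processing notes, which give no versions. They were taken as 2 summaries of 1 array per population, and never as replicates. RMA includes quantile normalization, so a global shift would not be seen. Which arrays were normalized together is not given in the sources used here. Symbols came from the platform annotation and were updated by Entrez number to RefSeq (GRCh38.p14), for 41043 of 41097 probe sets with a single symbol. No probe set of several symbols named a member. The probe set with the highest mean of both RMA values stood for its gene. Differences were computed in Python 3.11.15 with pandas 2.3.3 and checked on simulated data. The simulated differences were larger than the RMA difference of any member, so the check covers the computation only. All 35 members are accounted for; of other lists, genes changed at least 1.5-fold or the extremes were named, and others were named for their role after their values were seen. The members and lists were chosen with earlier results of these data known. The number of arrays limits precision. Alternatives covered the algorithm, the choice of probe set and the floor. Protein sequences were not used here.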

Additional observations from a re-analysis of the deposited data

How the results depend on the processing

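The metallothionein median was negative under each alternative run, from -0.90 by MAS5 to -0.26 without shared probe sets. The value of -0.26 is the difference of MT3, a gene close to the floor. It lay further from the main median than the 0.24 spread between probe sets. Without a floor, and with both arrays above it, the same 10 genes remained, so the median could not change. Leaving out probe sets ending in _x_at, alone or together with those ending in _s_at and _a_at, left 3 metallothionein genes, a median of -0.26, 1 gene at least 2-fold lower and 1 at least 1.5-fold lower; fewer genes remained by construction. MAS5 gave 3 and 9 genes for these counts in the signals as measured, and 2 and 8 over genes above the MAS5 floor on both arrays. Leaving out MT3 and MT4, an alternative chosen after seeing the data, gave a median of -0.85 over 8 genes. Asking for both arrays above the floor was also chosen after seeing the data. The count of transporters changed at least 1.5-fold was 2 in the main setting as measured, 1 of them above the floor on both arrays, and 1 both without _x_at, _s_at and _a_at probe sets, which removes SLC39A4, and with the floor at the 75th percentile (RMA 6.79), which removes SLC30A4. The SLC30 median was -0.04, and 0.02 with the mean over probe sets. For single genes, 7 of 29 differences moved by more than the 0.24 spread between probe sets when MAS5 replaced RMA. None of at least 1.5-fold changed sign under an alternative that kept the gene. Settings that only move the floor leave a gene's difference as it is, so they could not change a sign. Without _x_at probe sets, MT1M alone remained of the MT1 genes and MT2A. Dim signals limit SLC30A2, SLC30A4, MT3 and MT4. No paired analysis was possible because each population has 1 array.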
